A study of Mus musculus with 6 samples.

Results

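The type I interferon response genes are 35 genes that a cell switches on after sensing type I interferon, taken here by symbol from a fixed list. All 35 were found among the 24537 gene rows of the deposited table. The table holds transcript levels of regulatory T cells (Tregs, CD4 T cells that hold immune responses in check) from the mouse colon, in TPM (a level scaled for transcript length and library size). Colitis was induced with TNBS, a hapten that provokes T cell inflammation of the bowel: 150 µl at 1% on the skin, then 100 µl at 2.5% into the rectum 7 days afterwards. The 6 libraries comprise 3 of the genotype REV-ERB KO (called KO below) and 3 of REV-ERB WT (called WT), all from TNBS-treated mice, and no untreated group is used. Strain, age, the driver of the knockout, the deleted exons and the way the cells were purified were not stated in these sources. The comparison of the genotypes asks how Treg transcripts in the inflamed colon differ with loss of REV-ERB, a nuclear receptor of the circadian clock that represses transcription.

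Type I interferons signal through the receptor chains Ifnar1 and Ifnar2 to the kinases Jak1 and Tyk2, which act on Stat2. Stat2 and Irf9 belong to the complex ISGF3, which binds the interferon-stimulated response element (ISRE) in the promoters of its target genes. The targets include sensors of viral nucleic acid, enzymes that block viral replication, the ubiquitin-like protein Isg15 and its removing enzyme Usp18, and factors such as Irf7 that renew the response. In the gut, type I interferon is made at a low tonic level, and T cells as well as epithelial cells and macrophages respond to it.

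Sequences like the ISRE were more frequent in the promoters of these genes than over all genes, though not every promoter held one. RefSeq windows from 250 bases before to 50 bases after a transcript start (build GRCm38.p6) were matched by symbol for 26 of the 35 genes. The ISRE core was searched on both strands as GAAA, any 2 bases and GAAA, and a form with 1 base between as GAAANGAAA; matches to them can overlap. The ISRE core was found in the windows of 12 of the 26 genes (46.2%), against 3.99% of the 27025 genes with a window. GAAANGAAA was found in 8 of the 26 (30.8%), against 3.70% of all genes. Counted over single windows, 37.5% of the 32 member windows held the ISRE core, against 3.44% of all 32851 windows. A match is a description of these letters and not a binding site. The windows of 4 genes are printed 5′ to 3′ on the gene's strand with the matches in capitals. Isg15 is shown for its run of overlapping matches, Stat2, Ddx58 and Samhd1 because their levels did not overlap between the genotypes.
Isg15 (chr4:156200769-156201068, minus strand): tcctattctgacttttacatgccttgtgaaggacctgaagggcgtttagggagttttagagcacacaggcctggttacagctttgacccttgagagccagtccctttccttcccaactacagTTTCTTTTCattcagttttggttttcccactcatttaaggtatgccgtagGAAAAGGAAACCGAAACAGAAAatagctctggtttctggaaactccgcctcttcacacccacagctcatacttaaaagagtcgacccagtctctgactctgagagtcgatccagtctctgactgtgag
Stat2 (chr10:128270248-128270547, plus strand): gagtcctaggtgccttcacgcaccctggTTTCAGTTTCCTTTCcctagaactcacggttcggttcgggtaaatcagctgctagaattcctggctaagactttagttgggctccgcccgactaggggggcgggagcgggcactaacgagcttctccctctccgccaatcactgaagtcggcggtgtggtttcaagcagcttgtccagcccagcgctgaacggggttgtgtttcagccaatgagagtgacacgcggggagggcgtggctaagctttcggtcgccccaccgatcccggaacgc
Ddx58 (chr4:40239776-40240075, minus strand): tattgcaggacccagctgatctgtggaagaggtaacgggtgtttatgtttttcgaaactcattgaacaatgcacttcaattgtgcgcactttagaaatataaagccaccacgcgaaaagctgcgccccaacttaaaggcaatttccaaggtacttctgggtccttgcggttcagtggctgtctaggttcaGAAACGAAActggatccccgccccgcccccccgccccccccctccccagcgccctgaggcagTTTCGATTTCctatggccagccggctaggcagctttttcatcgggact
Samhd1 (chr2:157135047-157135346, minus strand): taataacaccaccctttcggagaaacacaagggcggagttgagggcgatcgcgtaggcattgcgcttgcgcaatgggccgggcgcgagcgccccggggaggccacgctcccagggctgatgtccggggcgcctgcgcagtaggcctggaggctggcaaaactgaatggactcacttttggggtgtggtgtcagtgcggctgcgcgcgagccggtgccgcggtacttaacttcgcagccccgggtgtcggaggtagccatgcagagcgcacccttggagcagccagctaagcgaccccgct

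Positions below count the RefSeq start of the window as 0. For Isg15 and Ddx58 it is the start of the deposited row. For Stat2 it lies 78 bases upstream of the row's start. For Samhd1 it lies 126 bases downstream, so that window reaches less far upstream of the row's start. In Isg15, matches to the ISRE core began at -78, -72 and -66 and formed 1 run, and a match to GAAANGAAA lay on the other strand at -128. In Stat2, a match to each motif lay on the other strand, at -222 and -216, and the pair overlapped. In Ddx58, GAAANGAAA began at -60 and the ISRE core lay on the other strand at 2. The Samhd1 window held neither motif. Across the 16 genes with either motif the median difference between the genotypes was -0.04 on the log2 scale, and across the 10 genes with a window but no match it was -0.05.

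The libraries hold 12641850 to 15890630 reads in KO and 9794480 to 12122575 in WT, so every KO library was deeper; these reads were recovered from TPM and transcript length. A member had 38 reads in its lowest library and 7324 in its highest, and 31 of the 35 members had at least 100 reads in every library. Foxp3, the transcription factor that defines Tregs, was measured at 195.3, 171.4 and 235.0 TPM in KO 1 to 3 and at 451.4, 663.7 and 590.3 TPM in WT 1 to 3. Transcripts of other cells were present too. All 17 epithelial markers passed the filter, and their summed level was 3374 to 6699 TPM in KO and 2374 to 3354 TPM in WT. All 13 macrophage and monocyte markers passed it as well, with sums of 942.3 to 1734 TPM in KO and 926.7 to 1432 TPM in WT. The sum of the 8 Treg and T cell markers was 3572 to 3959 TPM in KO and 4810 to 5397 TPM in WT. Of 8 markers of plasmacytoid dendritic cells, which make much type I interferon, 5 passed the filter, and the sum of the list was 199.1 to 369.5 TPM in KO and 185 to 294.8 TPM in WT. Most of it was Klk1 (97.2 to 283.4 TPM) and Runx2 (51.4 to 66.3 TPM), while Siglech, which defines these cells, did not exceed 0.287 TPM and Cox6a2 was listed at 0 in every library. Fewer cells of a type and less RNA per cell cannot be told apart in bulk libraries. Nothing in the labels ties the libraries of 1 genotype to separate animals, and the p-values then reflect only sample-to-sample spread, part of which may be technical.

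The interferon response genes were expressed in both genotypes, and most of them differed by less than the spread between libraries. Samhd1, which destroys the nucleotides that viruses need, averaged 154.8 TPM in KO and 228.9 TPM in WT. Stat2, the signal transducer of the pathway, averaged 31.1 and 45.3 TPM. These 2 genes had the smallest p-values of the 35, and both were lower in every KO library than in any WT library. The target genes with the best known antiviral roles, among them Isg15, Irf7 and the Ifit, Oas and Mx genes, lay in overlapping ranges and showed no common direction.

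Differences were tested with limma on log2(TPM + 1), KO minus WT, over the 13211 genes with at least 1 TPM in at least 3 libraries. All 35 members passed that filter. None of the 35 members had a Benjamini-Hochberg adjusted limma p of 0.05 or less, and neither did any gene tested (background 0% in each direction; smallest limma adjusted p 0.0678 over all genes and 0.1315 over the members). At an unadjusted limma p of 0.05 or less, 2 members (5.71%) were lower in KO, against 7.86% of all genes tested. By the same rule 0 members were higher, against 7.80%. Every KO library lay below every WT library for 3 members (8.57%), against 10.4% of all genes, and above for 0, against 10.6%. The members' shares in the lower direction were near those of all genes, so they are not read as a result about the members. A further fit weighted the libraries by their quality (array weights). In it 2 members (5.71%, Samhd1 and Stat2) were lower with an adjusted limma p of 0.05 or less, against 2.70% of all genes. By that rule 0 were higher, against 1.70%. At an unadjusted p of 0.05 or less the same fit had 4 members lower (11.4%), against 15.4% of all genes, and 1 higher (2.86%), against 12.7%. The difference exceeded the range of the libraries within each genotype for Samhd1 and Stat2 alone among the members, while 6.81% of all genes did so in the lower and 5.35% in the higher direction. The members' median was -0.08 on the log2 scale, with 21 below 0 (60%) and 14 above, beside a median of -0.003 and 50.5% below 0 over all genes.

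The intervals show what these libraries could resolve. The margin on each side of a member's 95% interval was 0.27 at the narrowest, 0.48 in the median and 0.93 at the widest. For 31 members the whole interval lay between -1 and 1 on the log2 scale, and for 10 it lay between -0.5 and 0.5. A p above the threshold does not show that a gene was alike in the genotypes.

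**Figure D1:**
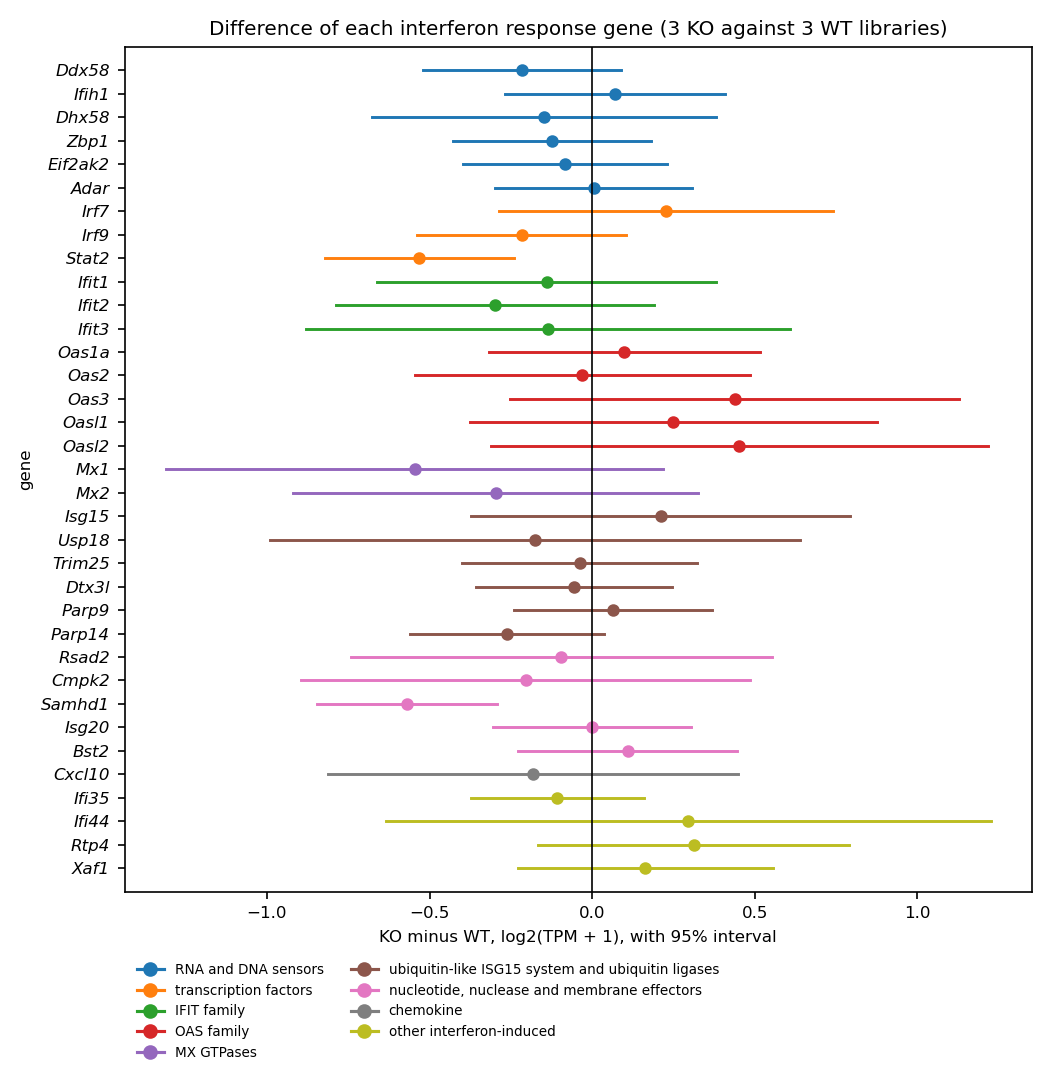
Difference of each of the 35 genes between KO and WT on the log2(TPM + 1) scale (x axis; n = 3 libraries per genotype), with the point as the limma estimate and the line as its 95% interval, coloured by role. Only the intervals of Samhd1 (-0.57) and Stat2 (-0.53) exclude 0, before any adjustment for the number of genes tested.

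**Figure D2:**
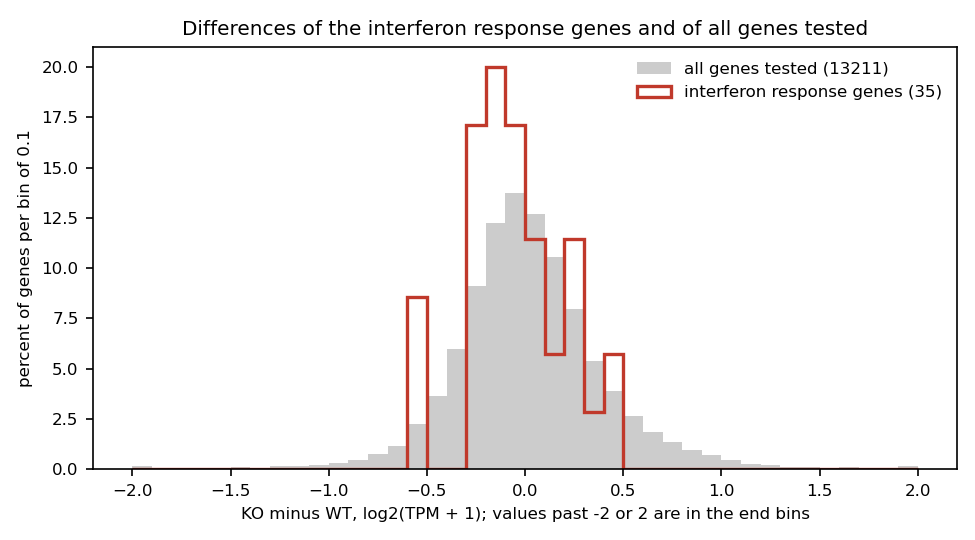
Share of genes per bin of the KO minus WT difference on the log2(TPM + 1) scale, for all 13211 genes tested (grey) and for the 35 interferon response genes (red outline). The members lie between -0.57 and 0.45, inside the bulk of all genes.

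The pathway's own transcription factors differed from one another. Stat2 (NM_019963, mm10 chromosome 10, 128270576 to 128292849, plus strand) was measured at 28.2, 34.5 and 30.4 TPM in KO 1 to 3 and at 46.2, 40.6 and 49.2 TPM in WT 1 to 3. Every KO library was lower than every WT library. The difference was -0.53 (SE 0.126, 95% interval -0.82 to -0.24, limma adjusted p = 0.1591), and the exact two-sided permutation test gave p = 0.1, its minimum with 3 libraries on each side. Irf9, the DNA-binding partner of Stat2, stood at 48.1, 49.8 and 55.5 TPM in KO and 54.2, 72.0 and 53.9 TPM in WT. Its groups overlapped, since KO 3 lay above 2 of the WT libraries, and the difference was -0.22 (SE 0.138). Irf7, the factor that amplifies the response, went the other way in its means, at 74.8, 94.1 and 54.4 TPM in KO and 74.7, 49.1 and 65.0 TPM in WT. KO 2 was its highest library and WT 2 its lowest, and the spread within KO (SD 19.9 TPM) was larger than the gap of the means (74.5 against 62.9 TPM).

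Among the 6 sensors of RNA and DNA, 4 were below 0 and 2 above, between -0.22 and 0.07, and these genes varied little between libraries. Their median SD within a genotype was 0.14 on the log2 scale, against 0.22 over all genes tested. Ddx58 (RIG-I, a sensor of viral RNA ends; NM_172689, mm10 chromosome 4, 40203777 to 40239825, minus strand) stood at 16.6, 20.3 and 17.9 TPM in KO and 20.7, 22.6 and 20.6 TPM in WT. Its groups did not overlap, but KO 2 and WT 3 were close, and with reads scaled by library total in place of TPM they overlapped. The difference was -0.22 (SE 0.131, limma adjusted p = 0.4559). Zbp1, the sensor of left-handed nucleic acid, had the highest level of the 6, at 90.8 ± 13.0 TPM in KO and 98.5 ± 9.41 TPM in WT (mean ± SD, n = 3, as in all such values here). Ifih1 (MDA5, the sensor of long double-stranded RNA) stood at 15.5 ± 2.14 against 14.6 ± 0.447 TPM. Dhx58 (LGP2, a regulator of those sensors) stood at 14.5 ± 3.39 against 16.2 ± 3.96 TPM. The kinase Eif2ak2 (PKR), which halts translation, stood at 15.8 ± 1.30 against 16.8 ± 1.14 TPM. Adar, which edits double-stranded RNA and so keeps the cell's own RNA from the sensors, was nearly level at 35.7 ± 2.57 against 35.7 ± 4.63 TPM. Adar overlaps Chrnb2 on the opposite strand by 8 bases.

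**Figure D3:**
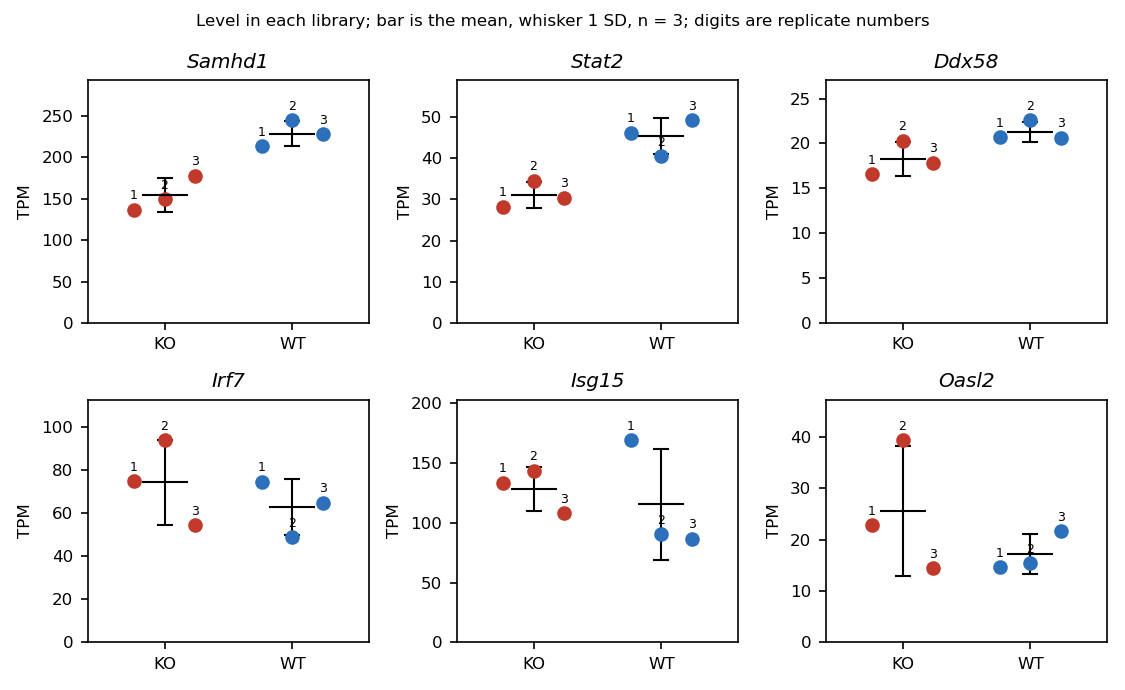
TPM of 6 genes in each library (y axis from 0), KO in red and WT in blue, with the mean as a bar and 1 SD as the whisker (n = 3). Samhd1, Stat2 and Ddx58 are lower in every KO library, while Irf7, Isg15 and Oasl2 overlap.

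The Ifit, Oas and Mx families encode the classical antiviral effectors, and they varied more between libraries of a genotype than the sensors did. The median SD within a genotype was 0.34 for the 3 Ifit genes, 0.41 for the 5 Oas genes and 0.43 for the 2 Mx genes on the log2 scale. The Mx genes lay under all the sensors in level, while the Ifit and Oas ranges overlapped that of the sensors. Means over the 6 libraries were 5.23 to 8.91 TPM for the Mx and 9.82 to 23.7 TPM for the Ifit genes. The Oas genes had means of 6.07 to 29.8 TPM and the sensors of 15.1 to 94.7 TPM. The 3 Ifit genes, whose proteins bind viral RNA, lie near each other on chromosome 19, and all had differences below 0. Ifit1 stood at 30.5, 23.0 and 15.4 TPM in KO and 25.3, 23.4 and 24.8 TPM in WT, so KO 1 and KO 3 lay on either side of all WT libraries. Ifit2 stood at 8.60 ± 0.697 against 11.04 ± 3.11 TPM and Ifit3 at 11.02 ± 4.33 against 12.1 ± 4.16 TPM. Ifit3 has a near-identical copy, Ifit3b, so its reads may be split with it.

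The Oas proteins make the oligoadenylates that activate RNase L, and the Oasl proteins are relatives with a ubiquitin-like tail. Of the 5 genes 4 were above 0. Oasl2 had the highest difference of all 35 members, 0.45 (SE 0.330, limma adjusted p = 0.5383), at 22.8, 39.4 and 14.5 TPM in KO and 14.6, 15.4 and 21.6 TPM in WT. KO 2 set this mean: KO 3 was the lowest of the 6 libraries. Oas3 stood at 9.998 ± 3.03 against 7.22 ± 2.70 TPM, a difference of 0.44 (SE 0.298). Oasl1 stood at 15.6 ± 5.39 against 12.7 ± 3.03 TPM, Oas1a at 30.9 ± 6.51 against 28.6 ± 4.42 TPM and Oas2 at 5.95 ± 0.784 against 6.19 ± 1.64 TPM. Oas1a has close copies, among them Oas1g, and its value is uncertain for that reason. Oas2 and Oas3 lie 3249 bases apart on chromosome 5, and Oasl2 and Oasl1 10994 bases apart on the same chromosome. Neighbours did not have the same size of difference: Oas2 was at -0.03 and Oas3 at 0.44.

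Mx1 and Mx2 belong to a family of GTPases that trap viral ribonucleoproteins. Both rows carry non-coding RefSeq accessions (NR_003520 and NR_003508), so their levels do not show that a working protein is made. Mx1 stood at 5.23, 7.21 and 7.90 TPM in KO and 9.96, 6.21 and 17.0 TPM in WT. Its difference of -0.55 (SE 0.330, 95% interval -1.31 to 0.22) was as large as that of Stat2, but WT 2 lay among the KO libraries and WT 3 stood far above the rest. Mx2 stood at 4.63 ± 1.63 against 5.83 ± 1.43 TPM.

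The Isg15 system showed no common direction. Isg15, which is attached to proteins like ubiquitin, stood at 133.3, 143.4 and 107.7 TPM in KO and 169.0, 90.4 and 86.6 TPM in WT. WT 1 was its highest library and WT 3 its lowest, so the whole KO range lay inside the WT range. Usp18, which removes Isg15 and damps the receptor, stood at 8.55 ± 1.69 against 10.5 ± 4.94 TPM, with WT 1 the highest and WT 2 the lowest of the 6 libraries. Trim25, the ubiquitin ligase that acts on RIG-I, stood at 25.3 ± 3.79 against 25.96 ± 3.53 TPM. The ADP-ribosyltransferases Parp9 and Parp14 and the ubiquitin ligase Dtx3l, which pairs with Parp9, lie together on chromosome 16. Parp14 stood at 41.2, 48.5 and 52.5 TPM in KO and 51.4, 56.5 and 62.9 TPM in WT. Its difference of -0.26 (SE 0.129, limma adjusted p = 0.3728, unadjusted p = 0.07825) was the third smallest p of the members, and its groups overlapped only through KO 3 and WT 1. Parp9 stood at 40.7 ± 4.97 against 38.8 ± 3.56 TPM and Dtx3l at 39.1 ± 5.46 against 40.5 ± 2.92 TPM. These 2 genes start from opposite strands and share 558 bases, so reads there could count for either.

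The effectors that act on nucleotides and membranes included the member of highest level. Samhd1 (NM_018851, mm10 chromosome 2, 157097529 to 157135222, minus strand) stood at 136.8, 149.7 and 177.7 TPM in KO and 213.8, 244.7 and 228.0 TPM in WT. All WT libraries were higher than all KO libraries. The difference was -0.57 (SE 0.120, 95% interval -0.85 to -0.29, limma adjusted p = 0.1315, exact permutation p = 0.1), or 0.676-fold in mean TPM. Bst2 (tetherin, which holds budding virus at the membrane) stood at 120.4, 131.0 and 93.4 TPM in KO and 117.3, 96.1 and 104.0 TPM in WT, in overlapping ranges. Isg20, an RNA exonuclease, was level at 57.04 ± 4.15 against 57.4 ± 8.68 TPM. Rsad2 (viperin) makes a chain-terminating nucleotide from CTP, and the nucleotide kinase Cmpk2 is its neighbour, 12762 bases away on chromosome 12. Rsad2 stood at 8.70 ± 2.42 against 9.42 ± 3.15 TPM and Cmpk2 at 4.29 ± 0.689 against 5.35 ± 2.31 TPM, and WT 3 was the highest library of both.

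Cxcl10, the chemokine that attracts Cxcr3-bearing T cells, was second in level at 198.4, 151.3 and 113.1 TPM in KO and 243.9, 163.4 and 124.6 TPM in WT. KO 1 and WT 1 were the highest of their genotypes, and the groups overlapped (difference -0.18, SE 0.272). Of the remaining 4 members 3 were above 0. Rtp4, a chaperone of membrane receptors, stood at 24.4 ± 2.46 against 19.9 ± 6.06 TPM (0.31, SE 0.207). Xaf1, which binds an inhibitor of apoptosis, stood at 10.4 ± 0.486 against 9.26 ± 1.48 TPM. Ifi44 had the lowest level of all members, at 3.59 ± 2.60 against 2.41 ± 0.627 TPM, with KO 2 at 6.5 TPM and KO 3 at 1.5 TPM. Ifi35 stood at 52.98 ± 6.14 against 56.95 ± 3.06 TPM.

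Libraries of the same genotype differed in the general level of the members. Among the KO libraries, KO 2 was the highest for 22 of the 35 members (62.9%), while it was the highest for 30.9% of all genes tested. KO 2 was highest and KO 3 lowest for 13 members (37.1%), among them Irf7, Oasl1, Oasl2, Oas1a, Isg15, Usp18, Ifit3 and Bst2, against 18.4% of all genes. Among the WT libraries, WT 2 was the lowest for 21 members (60%), against 33.6% of all genes, and WT 1 and WT 3 were each the highest for 16. Over all 6 libraries KO 2 and WT 3 were each the highest for 11 members. The mean log2 level over the members was 4.55, 4.81 and 4.48 in KO 1 to 3 and 4.76, 4.47 and 4.77 in WT 1 to 3. The within-genotype SD of that mean was 0.173. It describes single libraries and is not the error of the members' median difference of -0.08.

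**Figure D4:**
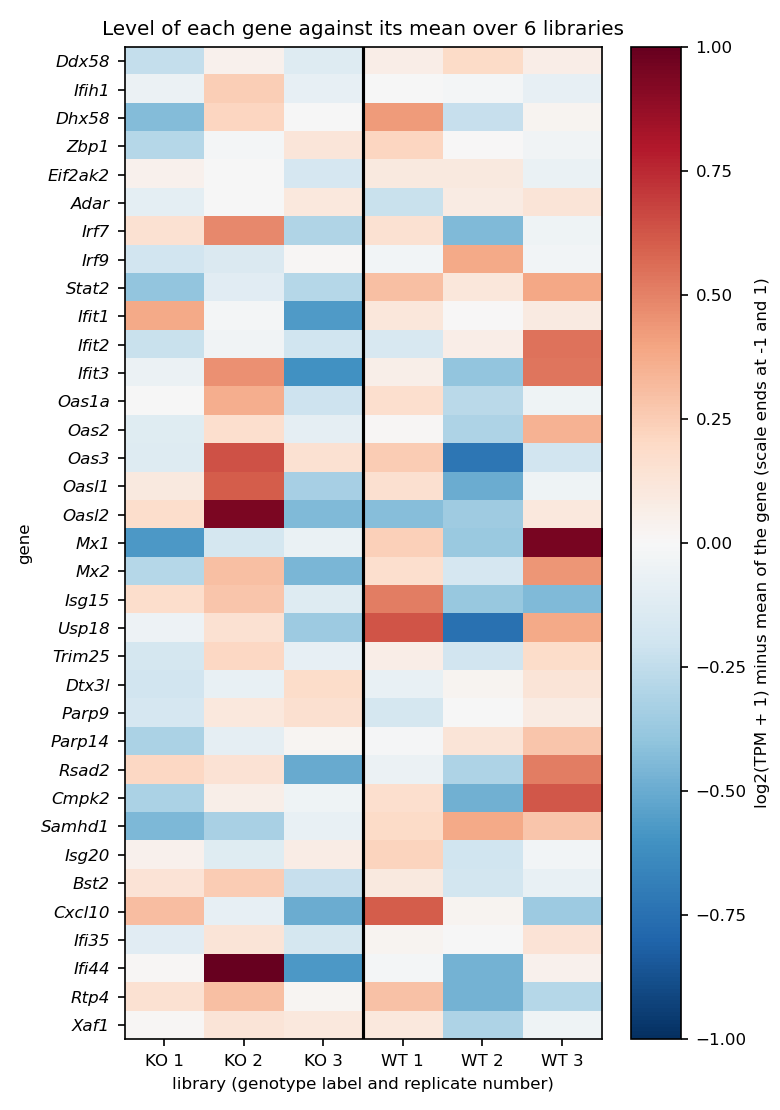
Level of each of the 35 genes in each library, as log2(TPM + 1) minus the gene's own mean over the 6 libraries (red above, blue below; the colour scale ends at -1 and 1). KO 2 is high and WT 2 low for many of the Oas, Irf7 and Isg15-related rows, while Samhd1 and Stat2 are blue in all KO and red in all WT libraries.

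Macrophage markers moved with some of these libraries. Their mean log2 level was 5.60, 6.28 and 5.35 in KO 1 to 3 and 5.38, 5.36 and 5.84 in WT 1 to 3. KO 2 and WT 3 were thus the highest for them as for the members. WT 1 did not follow: it was close to WT 2 for the macrophage markers. For the members it was close to WT 3 (4.76 and 4.77), with WT 2 at 4.47. C1qa, a complement subunit of macrophages, stood at 287.6 TPM in KO 2 and 240.8 TPM in WT 3, and at 136.3 to 164.1 TPM in the other 4 libraries. Not every marker of that list followed. Ly6c2 was highest in KO 1 (52.0 TPM) and lowest in WT 3 (10.1 TPM), and Cd14 was higher in WT 1 (57.0 TPM) than in WT 3 (46.4 TPM). The epithelial mean was 7.21, 7.84 and 6.94 in KO and 6.82, 6.30 and 6.63 in WT, again highest in KO 2 and lowest in WT 2, with all KO libraries above all WT libraries. The Treg and T cell mean ran the other way, at 8.12, 8.01 and 8.27 in KO and 8.41, 8.64 and 8.57 in WT, with all KO libraries under all WT libraries as for Samhd1 and Stat2. With the macrophage score as a covariate, Samhd1 stood at -0.54 and Stat2 at -0.59. With the epithelial score as a covariate the members' median was -0.35 (31 of 35 below 0, median over all genes 0.01), 7 members (20%) were lower at an unadjusted limma p of 0.05 or less, against 2.85% of all genes in the same fit, 0 were higher, against 1.88%, and 0 passed after adjustment. In that fit Stat2 stood at -0.74 and Samhd1 at -0.39, with an unadjusted limma p above 0.05 for Samhd1, and Irf7, at 0.23 without the covariate, stood at -0.44. The part of the T cell markers in these differences was not tested. The epithelial score was higher in all KO than in all WT libraries. Genotype and epithelial content therefore cannot be told apart in the fit with that score.

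**Figure D5:**
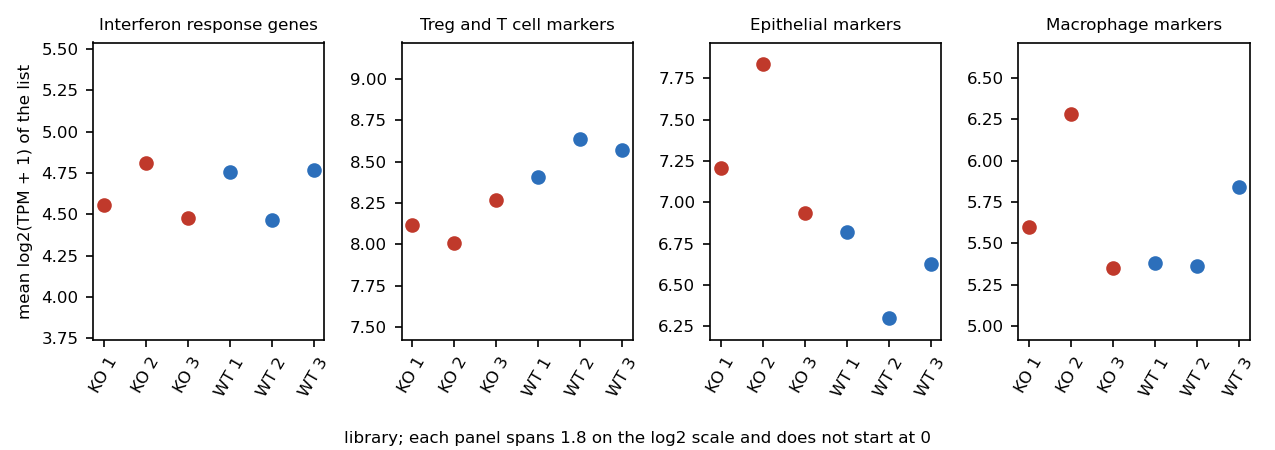
Mean log2(TPM + 1) per library (KO red, WT blue) of the 35 interferon response genes and of the Treg and T cell, epithelial and macrophage marker lists; every panel spans the same 1.8 log2 units and does not start at 0. KO 2 is highest in the interferon, epithelial and macrophage panels, and the T cell and epithelial panels separate the genotypes.

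Transcripts of the interferons themselves were at the limit of detection. Of 18 type I interferon genes, 16 had 0 reads in every library, which allows up to 3 reads per library by counting error. Ifnb1 had 2 reads in KO 3 and 2 in WT 1, and Ifna1 had 2 in KO 1 and 2 in WT 1. The receptor chains were well expressed. Ifnar1 stood at 74.3, 68.8 and 62.8 TPM in KO and 85.5, 88.7 and 82.8 TPM in WT, so every KO library was lower (difference -0.32, SE 0.10, limma adjusted p = 0.2208). Ifnar2 stood at 57.4 ± 5.38 against 66.5 ± 3.34 TPM, with overlapping groups. Of the 10 receptor and signalling genes tested, 1 was lower (10%) and 0 higher at an unadjusted limma p of 0.05 or less, against 7.86% and 7.80% of all genes.

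Upstream of interferon, 2 of 14 adaptors and kinases (14.3%) were lower and 0 higher by that rule, against 7.86% and 7.80% of all genes. They were the adaptor Traf3 (54.4 ± 1.97 against 71.2 ± 3.93 TPM, -0.38) and the transcription factor Irf3 (49.98 ± 9.11 against 65.9 ± 10.1 TPM, -0.40). Irf1, a related factor which also answers to interferon-γ, was lower by the same rule, at 199.0 ± 9.64 against 245.9 ± 19.9 TPM (-0.30).

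Of 46 other interferon-stimulated genes tested, 7 were lower (15.2%) and 4 higher (8.70%) at an unadjusted limma p of 0.05 or less (all genes 7.86% and 7.80%), and 0 passed after adjustment. Their median was -0.15. Those of smallest p that were lower were Trim30a (33.9 ± 2.24 against 47.8 ± 1.01 TPM), a Trim-family regulator, Ifi203 (51.7 ± 8.18 against 72.5 ± 6.07 TPM), Uba7 (45.4 ± 5.11 against 60.4 ± 2.48 TPM), the activating enzyme for Isg15, and Nlrc5 (57.98 ± 9.77 against 79.6 ± 3.66 TPM), the transactivator of MHC class I genes. Higher were Ifitm2 (232.6 ± 57.2 against 117.6 ± 29.4 TPM), which blocks viral entry at membranes, and Lgals3bp (144.3 ± 32.8 against 85.9 ± 18.1 TPM), a secreted glycoprotein. Both were highest in KO 2 and lowest in WT 2, as was the mean of the epithelial markers. Of 9 genes of the interferon-γ axis tested, Ifngr2 (46.3 ± 6.58 against 33.5 ± 4.57 TPM) was higher, and Cd274 (101.5 ± 3.77 against 122.2 ± 13.7 TPM) and Irf1 lower by the same rule, which is 11.1% higher and 22.2% lower, against 7.80% and 7.86% of all genes.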

How the data were processed

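RNA from Tregs of the colon was sequenced as poly(A)-selected, stranded libraries, per the labels' protocols. The authors deposited TPM values in 24537 rows, 1 per gene symbol. Each row gives 1 RefSeq transcript and its length, per the file headers. The submitters' processing notes name the build mm10 and the tools STAR 2.5.3a, HOMER 4.9.1, Trim Galore 0.4.4 and FastQC 0.11.8; their settings, and whether strand was used in counting, were not stated in these sources. The deposited TPM values sum to 634200 to 644662 per library. TPM times transcript length gave whole multiples of 1 step per library: 99.99% of values no higher than 500 reads were whole to a tolerance of 0.1, so reads could be recovered. Starts count from 1, as in the RefSeq table for 14489 genes.

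Genes with at least 1 TPM in at least 3 of the 6 libraries were fitted with limma 3.58.1 in R 4.3.3 (moderated two-sided test, variance trend, log2(TPM + 1), genotype as the only term), with Benjamini-Hochberg adjustment over all 13211 genes and a threshold of 0.05. The pseudocount of 1 understates the change of low genes. The fit was run on simulated data with planted differences and the same independent spread for every gene. Such data lack the shifts shared by many genes of a library, so they do not show how the fit behaves here. Alternatives changed the pseudocount, filter, scaling, weights, covariates and libraries, and used voom on recovered reads. Same-numbered libraries did not deviate together (r of 0.004, -0.219 and -0.041), so the numbers were not used as a block. Python 3.11.15 with pandas 2.3.3 and matplotlib 3.10.9 served for promoter windows and figures. All 35 members are named, with every library's value for those with non-overlapping groups, an unadjusted p of 0.05 or less or a central role. Other genes are named by smallest p, at most 6 per list, and Ifnar1, Ifnar2 and Ifnb1 always; items withheld from this text are not reported here. Further values per library, and other genes named, were chosen after they were seen. The members and lists were chosen with earlier results of these data known.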

Additional observations from a re-analysis of the deposited data

How the results depend on the processing

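Samhd1 and Stat2 stayed below 0 in all 18 alternatives. Stat2 ran from -0.739 to -0.466 and Samhd1 from -0.671 to -0.394. Their groups also did not overlap with quantile or median-of-ratios scaling or with reads scaled by library total. The other settings could not test this, as they kept the same TPM values or only left out a library. With array weights both passed the adjusted threshold (limma adjusted p = 0.02817 for Samhd1 and 0.04778 for Stat2), where 2.70% of all genes were lower and 1.70% higher; over all alternatives the adjusted p reached 0.9972 and 0.8558. Members lower with an adjusted p of 0.05 or less were 2 with array weights and 0 otherwise, voom included. At an unadjusted p, array weights gave 4 members lower (11.4%, against 15.4% of all genes) and 1 higher (2.86%, against 12.7%), and the epithelial covariate 7 lower (20%, against 2.85%) and 0 higher (against 1.88%), with a median of -0.353. With the replicate block 3 members were lower at an unadjusted p and 0 at an adjusted one, with a median of -0.083. Leaving out 1 library at a time gave 2 to 4 members lower and 0 to 2 higher at an unadjusted p (4 without WT 2, 2 higher without WT 1). The share over all genes is not set beside the counts of the replicate block and of the fits without 1 library. None of those counts is therefore read as a result about the members. In the fits without 1 library, 4 to 6 members lay below WT in every library (6 without KO 2, KO 3 or WT 2). Above WT lay 0 to 4 (4 without WT 1). Groups of fewer libraries overlap less. The median ran from -0.144 to 0.041 and was above 0 without WT 3. Ddx58 overlapped between groups with quantile or median-of-ratios scaling and with reads scaled by library total, and Parp14 did not overlap under the first pair.

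Signs of members' differences changed in some settings, also for members well above 0, such as Oasl2 (0.453) and Oas3 (0.439); the cause was not tested. The epithelial covariate itself separated the genotypes, so the fit with it cannot tell genotype from epithelial content. With the epithelial covariate the values were Ifih1 -0.146, Irf7 -0.44, Irf9 0.005, Oas1a -0.402, Oas3 -0.272, Oasl1 -0.548, Oasl2 -0.385 and Isg15 -0.298. In that fit Dtx3l was at 0.088, Isg20 at -0.016, Bst2 at -0.257, Ifi44 at -0.851, Rtp4 at -0.111 and Xaf1 at -0.015. With array weights Adar was at -0.089, Ifit1 at 0.013, Parp9 at -0.026 and Cxcl10 at 0.135. With the macrophage covariate Adar was at -0.004, Oas1a at -0.001 and Ifi44 at -0.01. Voom gave Oas2 0.015 and Trim25 0.005, and a pseudocount of 5 gave Isg20 0.0. Leaving out 1 library at a time gave ranges across 0 for 16 members. They were Dhx58 -0.3 to 0.032, Oas2 -0.193 to 0.137, Trim25 -0.152 to 0.046, Dtx3l -0.163 to 0.025, Isg20 -0.098 to 0.113, Ifih1 -0.034 to 0.127, Oas1a -0.056 to 0.228 and Ifi44 -0.133 to 0.658. The others were Adar -0.103 to 0.07, Ifit1 -0.362 to 0.111, Ifit3 -0.399 to 0.131, Parp9 -0.006 to 0.166, Rsad2 -0.273 to 0.137, Cxcl10 -0.407 to 0.075, Usp18 -0.593 to 0.093 and Cmpk2 -0.495 to 0.055. Ifi44 and Cmpk2 did not pass the filter of 5 TPM.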
